A study of Mus musculus with 6 samples.

Results

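C-type lectin receptors are surface proteins with which myeloid cells bind sugars, lipids and the remains of dead cells. The 10 genes described here are *Clec4a1*, *Clec4a2*, *Clec4a3*, *Clec4d*, *Clec4e*, *Clec4n*, *Clec5a*, *Clec7a*, *Clec12a* and *Clec2d*. They were taken by gene symbol from a table of 54532 genes, and all 10 passed the filter of at least 1 TPM, the read count per exon length scaled to a fixed library total, in at least 2 libraries that left 12755 genes for testing. Expression was measured by RNA-seq of poly-A RNA from bone-marrow-derived macrophages (BMDMs), primary macrophages grown from the marrow of wildtype C57BL/6 mice in medium conditioned by L929 cells, a source of the macrophage growth factor M-CSF. The 6 libraries formed 3 groups of 2, called A and B in each. Untreated BMDMs received neither agent, LPS BMDMs received lipopolysaccharide at 100 ng/ml for 2 h, and Met + LPS BMDMs received 5 mM metformin for 6 h before the same LPS stimulation. No group received metformin without LPS, and the labels do not say how many mice stand behind a library, so that p-values measure only the spread between these libraries, which may be technical.

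Members of the family signal in opposite ways. *Clec4e* (Mincle), *Clec4d* (MCL) and *Clec4n* (Dectin-2) encode receptors that signal through the adaptor FcRγ, the product of *Fcer1g*, while *Clec5a* (MDL-1) encodes a partner of the adaptor DAP12, the product of *Tyrobp*. *Clec7a* encodes Dectin-1, the receptor for fungal β-glucan, which carries an activating motif in its own tail. These receptors recruit the kinase Syk, and Syk acts through CARD9 on NF-κB. *Clec4a2* (DCIR) and *Clec12a* (MICL) encode receptors with an inhibitory tail motif, *Clec4a1* and *Clec4a3* encode relatives of DCIR, and *Clec2d* encodes Clr-b, a ligand of inhibitory receptors on natural killer cells.

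The libraries held 25457016 to 30762754 reads on genes, recovered from the TPM values and exon lengths, and the mean count of a member over the libraries ran from 124 reads for *Clec4n* to 20425 for *Clec4e*. All 8 macrophage markers were detected, with summed levels as deposited of 44621 to 46599 TPM untreated, 37412 to 37903 TPM with LPS and 30877 to 30948 TPM with Met + LPS. Most of each sum was *Lyz2*, with means of 34912, 26835 and 21292 TPM in these groups. Marker lists of B cells, T cells, natural killer cells, mast cells or basophils, erythroid cells and fibroblasts each summed to at most 1.56 TPM in any library. The dendritic cell list summed to 2.56 to 6.27 TPM, the monocyte list to 3.63 to 9.69 TPM and the neutrophil list to 26.5 to 45.5 TPM. Of the 8 neutrophil genes 5 passed the filter, with *Elane*, *S100a9* and *S100a8* reaching 17.4, 16.7 and 9.44 TPM, while *Ly6g* lay at 0 to 0.140 TPM. In bulk RNA, fewer cells of a type and less RNA per cell cannot be told apart. TPM values are shares of each library, and the median log2 fold change over all tested genes was -0.48 in LPS vs. untreated. Rescaling each library by the median of its gene-wise ratios brought this median to -0.01, and directions against untreated BMDMs are therefore given under both scalings. For Met + LPS vs. LPS the median was -0.03 as deposited and -0.02 after rescaling. In LPS vs. untreated, 2 macrophage markers were higher and 5 lower as deposited (limma adjusted p under 0.01). After rescaling, 5 were higher and 1 lower. Of all tested genes, 16.2% were higher and 60.1% lower as deposited, and 30.6% and 27.6% after rescaling.

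Among untreated BMDMs the highest levels belonged to *Clec4d*, *Clec7a* and *Clec12a*, at 533 ± 18.0, 408 ± 0.585 and 403 ± 7.76 TPM (SD, n = 2). The levels of *Clec7a* and *Clec12a* overlapped between libraries. *Clec2d*, *Clec4a3* and *Clec4a1* formed a middle group at 119 ± 3.68, 116 ± 4.23 and 114 ± 5.09 TPM (SD, n = 2), with overlap between neighbours in this order. *Clec4a2* followed with 55.4 ± 1.81 TPM, *Clec5a* with 26.5 ± 0.616 TPM, *Clec4e* with 17.1 ± 0.933 TPM and *Clec4n* with 12.0 ± 1.11 TPM (SD, n = 2), and none of these overlapped its neighbour. *Clec4e* thus held rank 9 of 10 in untreated BMDMs, above 49.2% of the tested genes, and moved to rank 2 after LPS, above 98.5% of them. *Clec4d* ranked first and *Clec4n* last in all 3 groups.

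**Figure D1:**
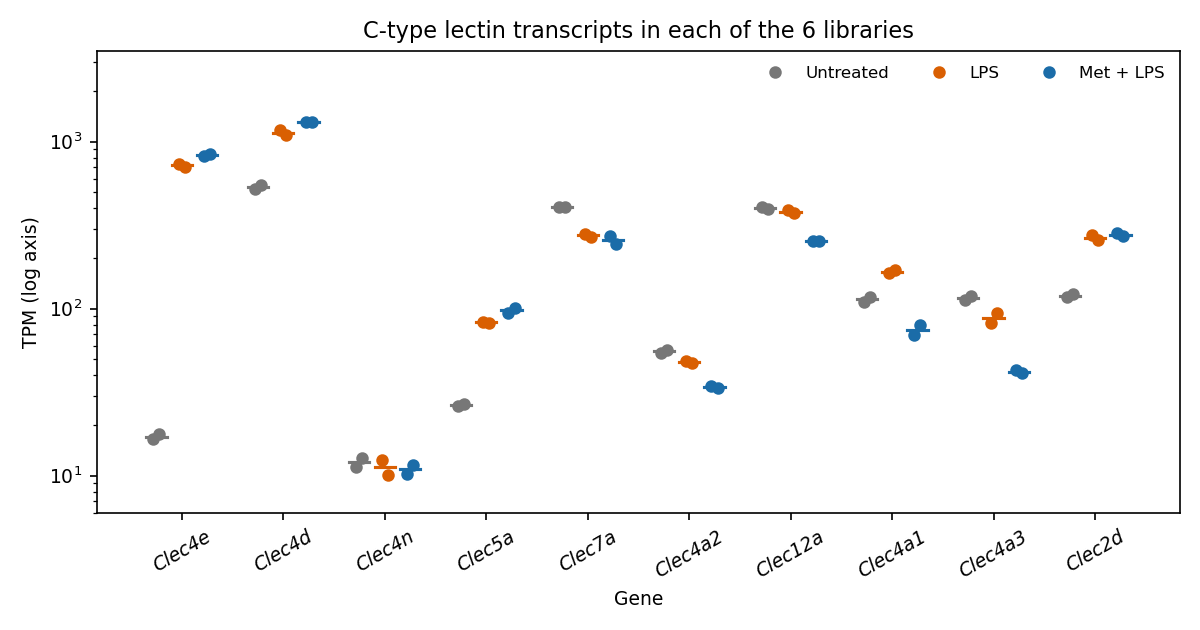
TPM of the 10 C-type lectin genes (log axis), with 1 point per library and a bar at the mean of each group of 2. *Clec4e* climbs from 16.4 to 17.8 TPM in untreated libraries to at least 704 TPM with LPS, and *Clec4a1* and *Clec4a3* are, as deposited, lowest in the Met + LPS libraries.

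The comparison of LPS with untreated BMDMs asks how the receptors answered 2 h of LPS. As deposited, 5 of the 10 members were higher at an adjusted p-value under 0.01 (limma, Benjamini-Hochberg over all tested genes), against 16.2% of all tested genes, and 3 were lower, against 60.1%. After rescaling, 7 members were higher, against 30.6% of all tested genes, none was lower, against 27.6%, and 3 did not pass, *Clec4a3*, *Clec7a* and *Clec4n*. As deposited, *Clec4e* alone passed both cut-offs, a change of 2 or more on the log2 scale in either direction and the same adjusted p. As deposited, 3.72% of tested genes passed both upwards and 2.37% downwards. After rescaling *Clec5a* passed them too, with a log2 fold change of 2.12. The median log2 fold change of the members was 0.23 as deposited and 0.76 after rescaling.

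*Clec4e*, the receptor for mycobacterial cord factor, had the largest increase of the members under both scalings. It lay at 16.4 and 17.8 TPM in the untreated libraries, 735 and 704 TPM in the LPS libraries and 825 and 842 TPM in the Met + LPS libraries. Both LPS libraries stood far above both untreated libraries. The ratio of the means was 42.1 and the log2 fold change 5.32 ± 0.05 (SE, limma adjusted p = 2.17e-09), or 5.82 after rescaling. *Clec4d*, whose product pairs with Mincle, started from a high level of 520.5 and 546 TPM and reached 1169 and 1098 TPM with LPS. It rose by 2.13-fold, a log2 fold change of 1.09 ± 0.04 (SE, limma adjusted p = 1.27e-06) as deposited and 1.61 after rescaling. *Clec4n*, the third FcRγ-linked receptor gene and a sensor of fungal mannans, showed no such difference. Its values were 11.2 and 12.8 TPM untreated and 12.4 and 10.1 TPM with LPS, so that the groups overlapped. The log2 fold change of *Clec4n* was -0.09 with a 95% interval from -0.36 to 0.18 (limma adjusted p = 0.490), and 0.40 after rescaling (adjusted p = 0.0169), which did not pass either.

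Of the other activating receptors, the DAP12-linked *Clec5a* rose and *Clec7a* did not. *Clec5a* lay at 26.0 and 26.9 TPM in untreated and at 83.6 and 81.5 TPM in LPS libraries, without overlap. Its mean was 3.12-fold higher, with a log2 fold change of 1.61 ± 0.04 (SE, limma adjusted p = 2.72e-07), and after rescaling the value of 2.12 also passed the minimum of 2. *Clec7a* measured 407 and 408 TPM untreated against 281 and 268 TPM with LPS. As deposited it was lower by 32.7%, stated as a log2 fold change of -0.57 ± 0.05 (SE, limma adjusted p = 6.17e-05), whereas after rescaling the value was -0.05 (adjusted p = 0.460). Relative to the median gene, the level of *Clec7a* thus lay 0.09 lower on the log2 scale in LPS BMDMs.

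The genes of the inhibitory receptors had small differences, whose direction turned with the scaling. *Clec4a2* measured 54.2 and 56.7 TPM untreated and 48.8 and 47.3 TPM with LPS, without overlap. Its log2 fold change was -0.20 (limma adjusted p = 0.00407) as deposited and 0.31 (adjusted p = 5.79e-04) after rescaling. The call as deposited was lost when any one of the 4 libraries was left out, with the adjusted p between 0.0115 and 0.0329. *Clec12a* had 408 and 397 TPM untreated and 387 and 374 TPM with LPS. This corresponded to a log2 fold change of -0.08 (95% interval from -0.16 to -0.0019, limma adjusted p = 0.0545) as deposited, and 0.44 (adjusted p = 2.82e-05) after rescaling.

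The genes of the 2 relatives of DCIR differed in direction as deposited, and both had positive values after rescaling. *Clec4a1* went from 110 and 117 TPM in untreated to 163 and 170.0 TPM in LPS libraries and rose by a log2 fold change of 0.55 ± 0.07 (SE, limma adjusted p = 2.60e-04), or 1.07 after rescaling. *Clec4a3*, the next gene on the chromosome, had 113 and 119 TPM untreated against 82.2 and 93.8 TPM with LPS. Its log2 fold change was -0.40 ± 0.07 (SE, limma adjusted p = 0.00132) as deposited and 0.13 (adjusted p = 0.148) after rescaling. Without untreated library A or B the adjusted p of *Clec4a3* was 0.0101 and 0.0186. *Clec2d*, the natural killer cell ligand, rose under both scalings. It measured 117 and 122 TPM untreated and 276 and 256 TPM with LPS, a 2.23-fold higher mean and a log2 fold change of 1.15 ± 0.05 (SE, limma adjusted p = 1.71e-06), or 1.67 after rescaling.

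**Figure D2:**
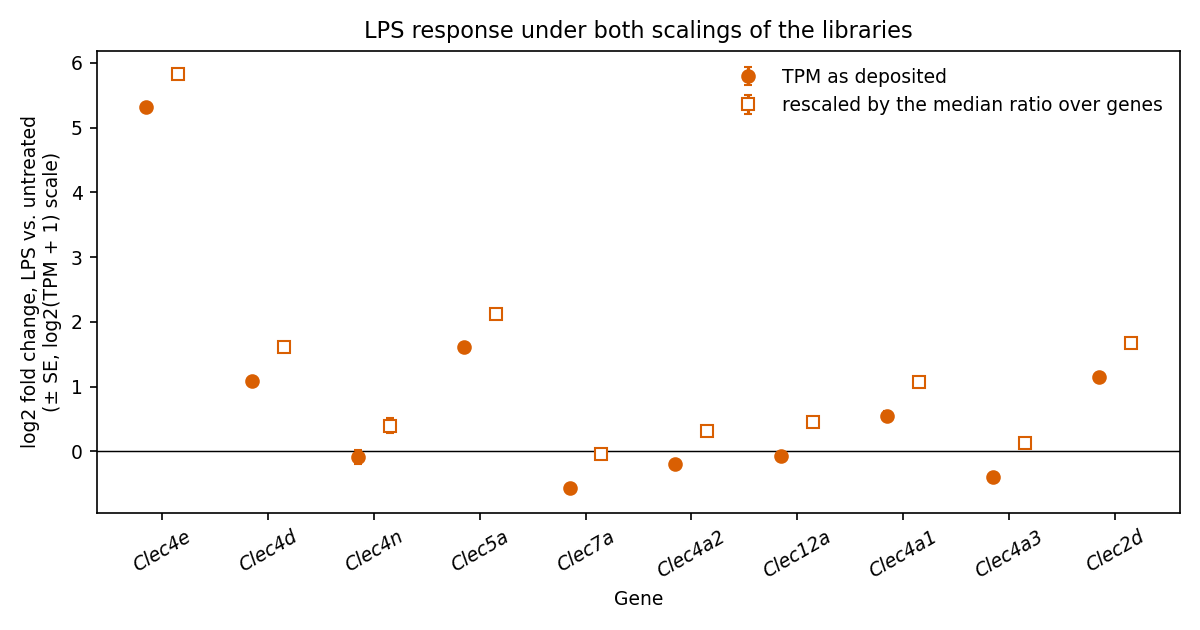
Log2 fold change of each gene in LPS vs. untreated BMDMs (± SE, mostly smaller than the symbols), from TPM as deposited (filled circles) and after rescaling by the median ratio over genes (open squares). *Clec4e* stands at 5.32 and 5.82, 5 genes lie above 0 under both scalings, and *Clec4n*, *Clec4a2*, *Clec12a* and *Clec4a3* lie below 0 as deposited and above 0 after rescaling.

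With no group on metformin alone, a changed LPS response and an effect of metformin without LPS cannot be told apart. Met + LPS vs. LPS therefore asks only how LPS-stimulated BMDMs differed with and without metformin pretreatment. Here 4 members fell and 3 were slightly higher at an adjusted p-value under 0.01, against 18.0% and 14.5% of all tested genes, and both cut-offs (here a change of 0.7 or more on the log2 scale and the same adjusted p) were passed by *Clec4a1* and *Clec4a3*, both downwards, against 4.09% of tested genes downwards and 4.19% upwards. The same 4 and 3 members were called after rescaling, against 17.4% and 15.6% of tested genes. The median log2 fold change was -0.07 for the members.

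The 4 genes that fell were the DCIR gene, its 2 relatives and *Clec12a*. *Clec4a1* dropped from 163 and 170.0 TPM in LPS libraries to 69.9 and 79.7 TPM in Met + LPS libraries. As deposited these values were also below the untreated 110 and 117 TPM. After rescaling, the log2 fold change of *Clec4a1* against untreated was -0.06 (limma adjusted p = 0.423). Against LPS, the mean of *Clec4a1* fell by 55.1%, and its log2 fold change was -1.15 ± 0.07 (SE, limma adjusted p = 4.96e-05). *Clec4a3* dropped from 82.2 and 93.8 TPM to 42.8 and 40.9 TPM. Its mean fell by 52.5%, with a log2 fold change of -1.05 ± 0.07 (SE, limma adjusted p = 6.53e-05). The 2 inhibitory receptor genes fell by less. *Clec4a2* lay at 48.8 and 47.3 TPM with LPS and at 34.5 and 33.5 TPM with Met + LPS, a log2 fold change of -0.49 ± 0.04 (SE, limma adjusted p = 2.36e-04). *Clec12a* lay at 387 and 374 TPM with LPS and at 254 and 254 TPM with Met + LPS, a log2 fold change of -0.58 ± 0.03 (SE, limma adjusted p = 4.28e-05). The LPS and Met + LPS libraries overlapped in none of these 4 genes, which for called genes is no further test. Each kept its call in all 14 alternative analyses, including a looser adjusted p of 0.05 that could not remove a call. Of the macrophage markers, 6 of 8 were also lower in Met + LPS than in LPS libraries at an adjusted p-value under 0.01, against 18.0% of all tested genes. Among them *Fcgr1* had the largest fall, with a log2 fold change of -1.14, while the median of the 8 markers was -0.34. *Cd68* (0.003) and *Csf1r* (-0.07) did not pass. The part of these markers' fall in the lectin values was not tested.

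The LPS-induced activating receptor genes went the other way by small amounts. *Clec4e* measured 735 and 704 TPM with LPS and 825 and 842 TPM with Met + LPS, a log2 fold change of 0.21 ± 0.05 (SE, limma adjusted p = 0.00873). *Clec4d* measured 1169 and 1098 TPM against 1310.1 and 1308 TPM, also 0.21 ± 0.04 on the log2 scale (SE, limma adjusted p = 0.00681). *Clec5a* measured 83.6 and 81.5 TPM against 94.6 and 100.3 TPM, a log2 fold change of 0.24 ± 0.04 (SE, limma adjusted p = 0.00504). The groups did not overlap in any of the 3, which with 2 libraries a group is no further test. The calls sat close to the threshold. They were lost in 9, 7 and 6 of 14 alternative analyses for *Clec4e*, *Clec4d* and *Clec5a*, with adjusted p-values of up to 0.0517, 0.0374 and 0.0325. Leaving out library B of the LPS group or library B of the Met + LPS group removed all 3 calls at once. The summed neutrophil markers stood at 43.6 to 45.5 TPM in Met + LPS against 26.5 to 28.0 TPM in LPS libraries. In this comparison 0 of 5 tested neutrophil markers passed, against 14.5% of all tested genes higher and 18.0% lower. The dendritic cell markers summed to 5.49 to 6.27 TPM against 3.52 to 3.62 TPM. There 1 of 3 tested, *Ccr7*, passed both cut-offs (log2 fold change 1.05, limma adjusted p = 0.00464), against 4.19% of tested genes upwards. Of the others tested, *Xcr1* had 0.35 and *Zbtb46* went the other way with -0.38, and neither passed. The monocyte markers summed to 3.63 to 4.50 TPM against 4.52 to 5.37 TPM. There 1 of 2 tested, *Ccr2*, was lower (log2 fold change -0.61, limma adjusted p = 0.00169), against 18.0% of tested genes. The other, *Ly6c2*, had 0.13 and did not pass. The part of these markers in the lectin values was not tested.

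*Clec2d*, *Clec7a* and *Clec4n* did not pass in Met + LPS vs. LPS. *Clec2d* stood at 282 and 271 TPM with Met + LPS against 276 and 256 TPM with LPS, and the 95% interval of its log2 fold change ran from -0.06 to 0.17 (limma adjusted p = 0.371). For *Clec7a*, with 270.1 and 244 TPM against 281 and 268 TPM, the interval ran from -0.22 to 0.03 (limma adjusted p = 0.185). *Clec4n*, with 10.2 and 11.5 TPM against 12.4 and 10.1 TPM, had the widest interval of the members, from -0.31 to 0.23 (limma adjusted p = 0.795). In all 3 genes the libraries of the groups overlapped.

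Set against untreated BMDMs, in a comparison that shares its libraries with those above, the Met + LPS libraries had 4 members higher, against 16.3% of tested genes, and 5 lower, against 58.8%. After rescaling 4 were higher, against 33.4% of tested genes, and 1 was lower, against 29.7%. The higher genes under both scalings were *Clec4e*, *Clec5a*, *Clec4d* and *Clec2d*, with log2 fold changes of 5.53, 1.84, 1.29 and 1.20 as deposited. *Clec4a3* was lower under both scalings, with 41.8 ± 1.34 against 116 ± 4.23 TPM (SD, n = 2), a log2 fold change of -1.45 (limma adjusted p = 2.83e-06) as deposited and -0.92 (adjusted p = 3.47e-05) after rescaling. *Clec4a1*, at 74.8 ± 6.94 against 114 ± 5.09 TPM (SD, n = 2), gave -0.60 (limma adjusted p = 1.68e-04) as deposited and -0.06 (adjusted p = 0.423) after rescaling. *Clec4a2*, *Clec12a* and *Clec7a* had log2 fold changes of -0.69, -0.66 and -0.67 as deposited and of -0.16, -0.12 and -0.13 after rescaling, where their adjusted p-values of 0.0117, 0.0119 and 0.0631 (limma) missed the threshold. *Clec4n* had -0.13 (limma adjusted p = 0.323) as deposited and 0.37 (adjusted p = 0.0210) after rescaling.

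The make-up of the lectin transcripts followed from these values. The 10 genes summed to 1804 ± 28.3 TPM untreated, 3171 ± 95.1 TPM with LPS and 3190 ± 5.87 TPM with Met + LPS (SD, n = 2). The LPS and Met + LPS sums overlapped, while their parts differed. *Clec4e* made up 0.922% and 0.974% of the sum in untreated, 22.7% in both LPS and 25.8% and 26.4% in Met + LPS libraries. The share of *Clec4d* was 29.2% and 29.9%, then 36.1% and 35.4%, then 41.0% and 41.1%. *Clec12a* took 22.9% and 21.8% of the sum in untreated, 12.0% and 12.1% in LPS and 7.97% in both Met + LPS libraries, and *Clec7a* took 22.8% and 22.4%, then 8.67% and 8.64%, then 8.46% and 7.67%.

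**Figure D3:**
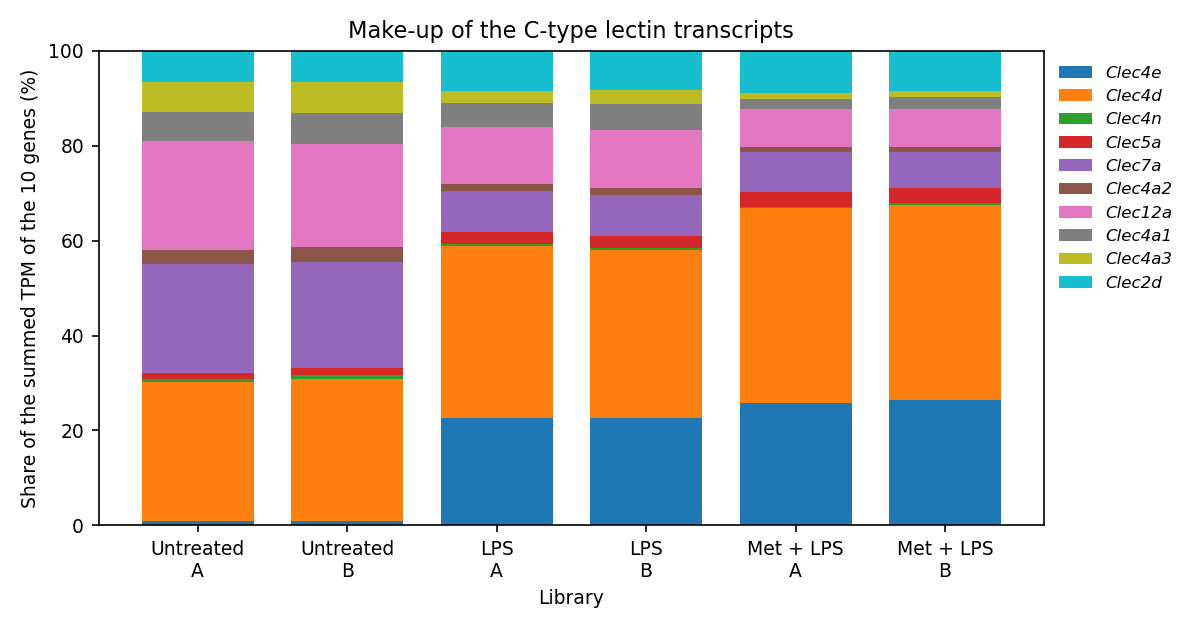
Share of each gene in the summed TPM of the 10 C-type lectin genes, as stacked bars with 1 bar per library. *Clec4e* grows from under 1% in both untreated libraries to 22.7% with LPS and 25.8% to 26.4% with Met + LPS, and *Clec12a* shrinks to 7.97%.

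All 10 genes lie on chromosome 6 (GRCm38), in 2 clusters and 1 outlying locus. *Clec5a* lies apart at chr6:40574894-40585821 on the minus strand. The first cluster spans 368 kb from *Clec4a1* to *Clec4e* (chr6:122921848-123289870) and holds 9 listed lectin genes, 6 of them members. In order these members are *Clec4a1* (chr6:122921848-122934619), *Clec4a3* (chr6:122952515-122969875), *Clec4a2* (chr6:123106428-123143999), *Clec4n* (chr6:123229843-123247021), *Clec4d* (chr6:123262111-123275265) and *Clec4e* (chr6:123281789-123289870). The first 5 are on the plus strand and *Clec4e* is on the minus strand, so that *Clec4d* and *Clec4e* are transcribed towards each other across a gap of 6.52 kb. The second cluster spans 292 kb and holds 8 listed lectin genes, 3 of them members. These members are *Clec2d* (chr6:129180615-129186534, plus strand), *Clec12a* (chr6:129342691-129365303, plus strand) and *Clec7a* (chr6:129461591-129472779, minus strand), the last of which GENCODE labels a polymorphic pseudogene. No exon of a member overlaps an exon of another annotated gene. The processed pseudogene *Gm44132* overlaps the *Clec4a2* gene on the same strand, outside its exons.

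Within the first cluster the difference between Met + LPS and LPS was negative at one end and slightly positive at the other, without a test of the order. From *Clec4a1* to *Clec4a2* the log2 fold changes were -1.15, -1.05 and -0.49, and the one other tested gene between them, *Clec4b1*, had -0.97 (limma adjusted p = 0.00909) with 15.2 and 11.0 TPM with LPS and 7.59 and 4.90 TPM with Met + LPS. From *Clec4n* to *Clec4e* the values were -0.04, 0.21 and 0.21. The neighbours *Clec4d* and *Clec4e*, alike in this contrast, had log2 fold changes of 1.09 and 5.32 in LPS vs. untreated, with 95% intervals from 0.99 to 1.19 and from 5.21 to 5.42. In the second cluster, *Clec2d* and *Clec7a* did not pass while *Clec12a* between them fell. The other tested genes of this cluster were *Cd69*, with -0.99 (limma adjusted p = 1.68e-04), and *Clec1a*, with -0.08 (adjusted p = 0.741). Of the distinct stretches of 31 bases in the exons of a member, 97.8% to 100% occurred in no other gene for 8 members, so that their reads could be told from those of relatives. For *Clec4a2* it was 89.1%, with stretches shared with *Clec4a4* and *Clec4b1*, and for *Clec2d* 88.2%, with stretches shared with *Clec2i*, *Clec2j* and *Clec2g*, so that the levels of these 2 genes are less certain.

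**Figure D4:**
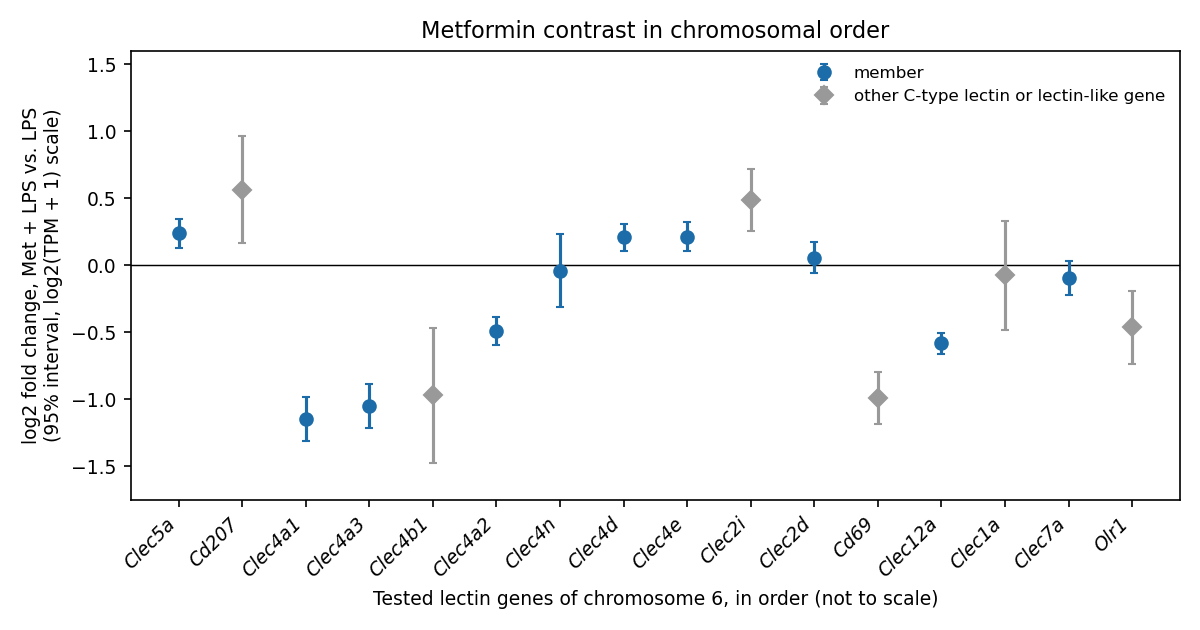
Log2 fold change in Met + LPS vs. LPS with its 95% interval for the tested lectin genes of chromosome 6, in chromosomal order and not to scale, with the 10 described genes as circles and other lectin genes as diamonds. *Clec4a1*, *Clec4a3*, *Clec4b1* and *Clec4a2* lie between -1.15 and -0.49, and the neighbouring *Clec4n*, *Clec4d* and *Clec4e* between -0.04 and 0.21.

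The promoter sequences of 3 members of the first cluster are shown, because *Clec4e* and *Clec4d* are neighbours with unlike LPS responses and *Clec4a1* had the largest decrease of the members in the metformin contrast. Each window holds the 250 bases before and 50 bases after a RefSeq transcript start (GRCm38.p6) and is written 5′ to 3′ on the strand of the gene. Capitals mark a match to the C/EBP motif.
*Clec4e* (chr6:123289822-123290121, minus strand): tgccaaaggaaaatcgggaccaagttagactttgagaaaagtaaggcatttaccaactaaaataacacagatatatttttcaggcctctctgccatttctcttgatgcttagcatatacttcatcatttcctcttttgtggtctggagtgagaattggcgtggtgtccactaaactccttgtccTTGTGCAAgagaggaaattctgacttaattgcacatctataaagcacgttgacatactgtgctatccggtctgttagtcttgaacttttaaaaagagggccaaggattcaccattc
*Clec4d* (chr6:123261857-123262156, plus strand): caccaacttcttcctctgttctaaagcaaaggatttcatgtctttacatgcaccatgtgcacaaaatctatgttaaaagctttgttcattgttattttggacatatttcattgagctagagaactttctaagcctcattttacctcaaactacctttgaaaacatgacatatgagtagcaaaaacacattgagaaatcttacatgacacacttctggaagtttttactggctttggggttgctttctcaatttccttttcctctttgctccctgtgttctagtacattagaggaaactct
*Clec4a1* (chr6:122921598-122921897, plus strand): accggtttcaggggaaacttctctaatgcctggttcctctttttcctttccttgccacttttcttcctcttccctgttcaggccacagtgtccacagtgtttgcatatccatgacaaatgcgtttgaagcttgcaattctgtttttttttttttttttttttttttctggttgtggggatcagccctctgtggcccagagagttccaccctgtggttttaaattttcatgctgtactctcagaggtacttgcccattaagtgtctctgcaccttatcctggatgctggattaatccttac

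Windows were found for 9 of the 10 members, 11 in all, and *Clec4n* had no entry. They were searched on both strands for NF-κB (GGANTTTCC), C/EBP (TTGCNNAA), AP-1 (TGANTCA) and PU.1 (GAGGAAGT) motifs, and no match overlapped another in these windows. The *Clec4e* window holds a C/EBP match, read on the other strand, that begins 66 bases before the start. C/EBP matches occur in 10.8% of the 32817 promoters of the table. The *Clec12a* window (chr6:129349994-129350293, plus strand) holds a C/EBP match 140 bases before the start and an AP-1 match 213 bases before it, and the *Clec4a2* window (chr6:123122440-123122739, plus strand) an AP-1 match 31 bases after the start, a motif found in 7.81% of all promoters. No window of a member holds the NF-κB or PU.1 letters, which occur in 1.26% and 3.20% of all promoters. These matches are a description of the windows only.

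The adaptors and kinases next to the receptors were all expressed. Of 17 listed genes, all 17 were tested. In LPS vs. untreated 7 were higher and 8 lower as deposited, against 16.2% and 60.1% of all tested genes. After rescaling 9 were higher and 2 lower, against 30.6% and 27.6%. *Fcer1g*, the adaptor of *Clec4e*, *Clec4d* and *Clec4n*, measured 2913 and 2906 TPM untreated, 3169 and 3146 TPM with LPS and 2491 and 2633 TPM with Met + LPS. In LPS vs. untreated its log2 fold change was 0.12 (limma adjusted p = 0.0199) as deposited, which did not pass, and 0.64 (adjusted p = 8.28e-06) after rescaling, which did. *Fcer1g* fell in Met + LPS vs. LPS by a log2 fold change of -0.30 (limma adjusted p = 8.19e-04). *Tyrobp*, the adaptor of *Clec5a*, measured 4954 and 5008 TPM untreated, 3759 and 3616 TPM with LPS and 2953 and 2937 TPM with Met + LPS. Its log2 fold change was -0.43 as deposited and 0.09 after rescaling for LPS, and -0.32 (limma adjusted p = 4.22e-04) for Met + LPS vs. LPS. *Syk* rose with LPS from 215 and 216 TPM to 424 and 418 TPM and was at 380.2 and 363 TPM with Met + LPS, a log2 fold change of -0.18 (limma adjusted p = 0.00526) against LPS. In this contrast 11 of the 17 were lower and 1 higher, against 18.0% and 14.5% of all tested genes, with a median of -0.30. The kinases *Src* (-0.85) and *Fgr* (-1.09) passed both cut-offs, against 4.09% of tested genes downwards. As deposited, *Src* was also the 1 gene of the list past both cut-offs for LPS, with a log2 fold change of 4.15. Of all tested genes 3.72% passed both for LPS upwards and 2.37% downwards.

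The CARD9 and NF-κB list of 15 genes, all tested, had 8 higher and 6 lower in LPS vs. untreated as deposited, against 16.2% and 60.1% of all tested genes. After rescaling 10 were higher and 5 lower, against 30.6% and 27.6%. *Card9* itself was lower with LPS under both scalings, at 31.5 and 32.9 TPM against 65.6 and 66.0 TPM, with log2 fold changes of -1.01 as deposited and -0.49 after rescaling. It did not pass in Met + LPS vs. LPS, at 33.1 and 33.7 TPM (log2 fold change 0.05, limma adjusted p = 0.361). *Malt1*, a partner of CARD9, rose by a log2 fold change of 3.44, and the NF-κB genes *Rel*, *Nfkb1* and *Relb* by 2.77, 2.55 and 2.55. *Tab1* fell with -2.56. These were the genes past both cut-offs for LPS as deposited, against 3.72% of all tested genes upwards and 2.37% downwards. In Met + LPS vs. LPS 2 of the 15 were higher and 6 lower, against 14.5% and 18.0% of all tested genes, and 0 passed both cut-offs.

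Among 54 further C-type lectin and lectin-like genes, 15 were tested and 15 were listed at 0 in all libraries. In LPS vs. untreated 4 of the 15 tested were higher and 5 lower as deposited, against 16.2% and 60.1% of all tested genes. After rescaling 6 were higher and 1 lower, against 30.6% and 27.6%. The 3 past both cut-offs, against 3.72% of tested genes upwards, were *Cd69*, *Olr1* and *Sele*, each below 0.5 TPM in both untreated libraries. In Met + LPS vs. LPS 2 were higher and 6 lower, against 14.5% and 18.0% of all tested genes. Of the lower genes 5 passed both cut-offs, against 4.09% of tested genes downwards. Their log2 fold changes were -1.44 for *Sele*, -1.25 for *Clec10a*, -0.99 for *Cd69*, -0.97 for *Clec4b1* and -0.73 for *Cd302*. The natural killer cell receptor gene *Klrb1b*, whose product binds Clr-b, reached at most 0.0594 TPM.

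The genes whose levels over the 6 libraries were most like those of *Clec4e*, by the Euclidean distance between mean-centred log2(TPM + 1) values, were *Nfkbiz* (distance 0.124), *Calhm6* (0.210) and *Isg15* (0.235). Their mean levels were 15.5, 682 and 791 TPM for *Nfkbiz* in untreated, LPS and Met + LPS BMDMs, beside 17.1, 720 and 834 TPM for *Clec4e*. *Calhm6* had 11.7, 527 and 553 TPM, and *Isg15* had 55.7, 2130 and 2260 TPM. For *Clec7a*, which had the largest decrease of the members in LPS vs. untreated as deposited, the nearest genes were *Racgap1* (0.0641), *Itgb7* (0.0649) and *Gpr107* (0.0676).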

How the data were processed

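RNA-seq libraries of BMDMs were grouped by their labels. The authors deposited TPM values for 54532 genes. According to the study's methods and the submitters' processing notes, reads of poly-A RNA were aligned to GRCm38 with STAR 2.6.1d and counted with featureCounts of Subread 1.6.3, with SAMtools 1.9 also named. How counts became TPM is not given in the sources used here. The table also holds gene positions and biotypes, and all its value columns matched a sample label.

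The 12755 genes that reached 1 TPM in 2 or more of the 6 libraries were tested on log2(TPM + 1), so that fold changes of low genes are understated, with limma 3.58.1 in R 4.3.3 (lmFit, eBayes with trend, all libraries, no covariate, 3 residual degrees of freedom) and Benjamini-Hochberg adjustment. An exact permutation test of 2 against 2 libraries cannot go below a two-sided p of 0.333 and was not used. The cut-offs, adjusted p under 0.01 with a log2 change of 2 (LPS) or 0.7 (metformin) or more, follow the study's methods.

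Exon lengths and coordinates came from GENCODE for GRCm38, which matched 54495 genes. TPM times exon length gave whole multiples of a library's read step within 0.02 for 96.1% to 96.3% of values above 0, and these multiples were taken as reads. Without molecular identifiers, reads are not independent molecules. The fit was tested on simulated data. Replicates with the same letter did not deviate together (correlations of -0.00, 0.03 and 0.01 over genes).

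The members and gene lists were chosen with earlier results of these data known. All members are named, and from the pathway lists the genes past both cut-offs plus *Fcer1g*, *Tyrobp*, *Syk* and *Card9*. *Fcgr1*, *Cd68*, *Csf1r*, *Lyz2*, *Ly6g*, *Elane*, *S100a9*, *S100a8*, *Ccr7*, *Xcr1*, *Zbtb46*, *Ccr2*, *Ly6c2*, *Clec1a* and *Klrb1b* were named after their values were seen. Python 3.11.15, numpy 2.4.6, pandas 2.3.3 and matplotlib 3.10.9 were used.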

Additional observations from a re-analysis of the deposited data

How the results depend on the processing

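Alternatives were another pseudocount, filter, cut-off, set of samples, variance trend and scaling, a replicate block, groups without overlap, voom on recovered reads and, chosen after seeing the data, voom with rescaling. Members past both cut-offs in LPS vs. untreated numbered 1, but 2 after rescaling, 2 with voom and rescaling, and 4 with a minimum log2 fold change of 1. Members with an adjusted p under 0.01 in Met + LPS vs. LPS numbered 7, but 4 with no filter, 4 with the compared groups only, 4 without the trend, 5 with the replicate block, and 4 to 5 with a library of either group left out, the 4 arising without library B of either group. In Met + LPS vs. untreated they numbered 9, but 5 after rescaling. The cause was not tested. Over single members, 368 values kept their direction and side of the threshold, 38 kept only the direction and 14 reversed. The looser cut-off of 0.05 on the adjusted p, counted in these, reused the main fit and could not remove a call. Rescaling, alone and with voom, reversed the LPS contrast of *Clec4a2* (0.31 and 0.32), *Clec4a3* (0.13 and 0.13), *Clec12a* (0.44 and 0.45) and *Clec4n* (0.40 and 0.44), and *Clec4n* in Met + LPS vs. untreated (0.37 and 0.41). Leaving out a library moved *Clec4n* between -0.22 and 0.047 in LPS vs. untreated and between -0.17 and 0.093 in Met + LPS vs. LPS. Its sign turned without untreated library B or LPS library B in the first and without library A of either group in the second. The replicate block ended the calls of *Clec4d* and *Clec4e* in Met + LPS vs. LPS (adjusted p of 0.0121 and 0.0137, limma) and no other. The letters do not show that libraries share mice. With 2 libraries a group, small differences are measured with little precision, and *Clec4n*, at 105 to 145 reads a library, is limited by depth.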
